A study of Mus musculus with 6 samples.

Results

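The mitochondrial ribosomal protein genes were examined in cultured mouse articular chondrocytes after knockdown of Irf1. The family was taken from the gene symbols: every listed gene whose symbol starts with Mrpl or Mrps, followed by a number and at most 1 letter, and that is no pseudogene. This gave 78 genes of the 55377 listed, 49 with a large subunit symbol (Mrpl) and 29 with a small subunit symbol (Mrps). Of these, 77 had enough reads to be tested, among 14683 tested genes in all. The exception was Mrpl53, which was listed at 0 in all 6 libraries.

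Chondrocytes, the matrix-producing cells of cartilage, were grown as primary cultures from mouse articular cartilage and transfected with a control siRNA (3 libraries) or with an siRNA against Irf1 (3 libraries). The product of Irf1, interferon regulatory factor 1, controls transcription in interferon responses. RNA was taken 36 h later in both groups, and the sources used here give neither the strain, age and number of animals nor the siRNA sequences. Whether the libraries of a group stem from different cultures or mice is not stated, and the p-values therefore reflect only how much these libraries vary, perhaps for technical reasons.

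Mitochondria hold their own ribosome, which translates the few proteins encoded by mitochondrial DNA, nearly all of them membrane-embedded subunits of the respiratory chain and ATP synthase. Its ribosomal RNAs come from mitochondrial DNA, but all of its proteins are encoded in the nucleus, made in the cytosol and imported. About its core of proteins with bacterial counterparts lie further proteins found only in mitochondrial ribosomes. The small subunit reads the messenger RNA, and the large subunit forms the peptide bond and sits at the inner membrane.

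Total counts ranged from 22349142 to 29282494 per library, and every Irf1 siRNA library was shallower than every control library. Irf1 fell from 11.98 ± 0.759 to 5.58 ± 0.471 CPM (read counts scaled to library size with TMM factors; mean ± SD, n = 3), by 1.10 ± 0.11 (SE) on the log2 scale (adjusted p = 3.0e-06). The chondrocyte markers, 10 of 10 detected, summed to 88248 to 115292 CPM in the control libraries and 88432 to 115158 CPM in the Irf1 siRNA libraries, with Hapln1 lower (log2 fold change −1.04, adjusted p = 1.6e-08). Summed macrophage markers (6 genes, 1 of them at 0 in all libraries) were at 12.8 to 16.5 CPM with control siRNA and 18.1 to 18.6 CPM with Irf1 siRNA, and Cd14 and Cd68 were higher. Of the other macrophage markers, Lyz2 was at 62.03% of control (log2 fold change −0.69, adjusted p = 0.0566, groups not overlapping), Csf1r had 9 to 15 counts with control siRNA and 6 to 8 with Irf1 siRNA, Ptprc had 4 to 12 and 2 to 4 counts, and Adgre1 was the gene at 0. Summed osteoblast markers (5 genes) were at 129 to 151 and 89.4 to 122 CPM, fibroblast markers (6 genes) at 21.1 to 24.0 and 22.6 to 26.0 CPM, muscle markers (5 genes, 1 at 0) at 12.02 to 12.9 and 11.3 to 13.4 CPM, endothelial markers (5 genes) at 0.892 to 1.38 and 0.872 to 1.26 CPM, and all 5 erythroid markers were at 0. Among these, Twist2 (fibroblast, log2 fold change 1.10, adjusted p = 4.0e-04) and Des (muscle, 0.43, adjusted p = 0.0446) were higher. Thy1 (fibroblast) was at 81.1% of control (adjusted p = 0.0651) and Acta1 (muscle) at 89.1% (adjusted p = 0.297). Of the osteoblast markers, Ibsp was at 61.4% of control (adjusted p = 0.182), Runx2 at 87.3% (0.0551) and Sp7 at 99.2% (0.944). Bglap, with means of 0.199 and 0.439 CPM, was at 218% (adjusted p = 0.0880), and Dmp1 had 1 to 7 and 2 to 11 counts. The part of the marked cell types in the results below was not tested. In bulk RNA fewer cells of a type and less RNA per cell cannot be told apart.

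After Irf1 knockdown, the mitochondrial ribosomal protein genes as a family were near their control level. With an adjusted p under 0.05 as the threshold, 13 of 77 genes changed (16.9%), against 22.4% of all tested genes. Of the 13, 3 were higher (all tested genes: 10.4% higher) and 10 were lower (all tested genes: 12% lower). The median log2 fold change was 0.00 (interquartile range −0.07 to 0.08), beside 0.00 over all tested genes (−0.17 to 0.15). The 95% interval of the fold change lay within a 1.25-fold change either way for 57 of the 77 genes (74%), against 39.7% of all tested genes and 53% of the 7104 tested genes with a mean level in the same range of 6.87 to 71.7 CPM. The values of the 3 control and 3 Irf1 siRNA libraries did not overlap for 19 of 77 genes (24.7%), against 38.1% of all tested genes. Of the 77 genes, 5 had fold changes beyond 1.25-fold, against 3523 of the 14683 tested genes and 1115 of the 7104 in the same range of levels. Of these 5, Mrpl10, Mrpl51, Mrpl50 and Mrps24 were lower and Mrps6 was higher.

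**Figure D1:**
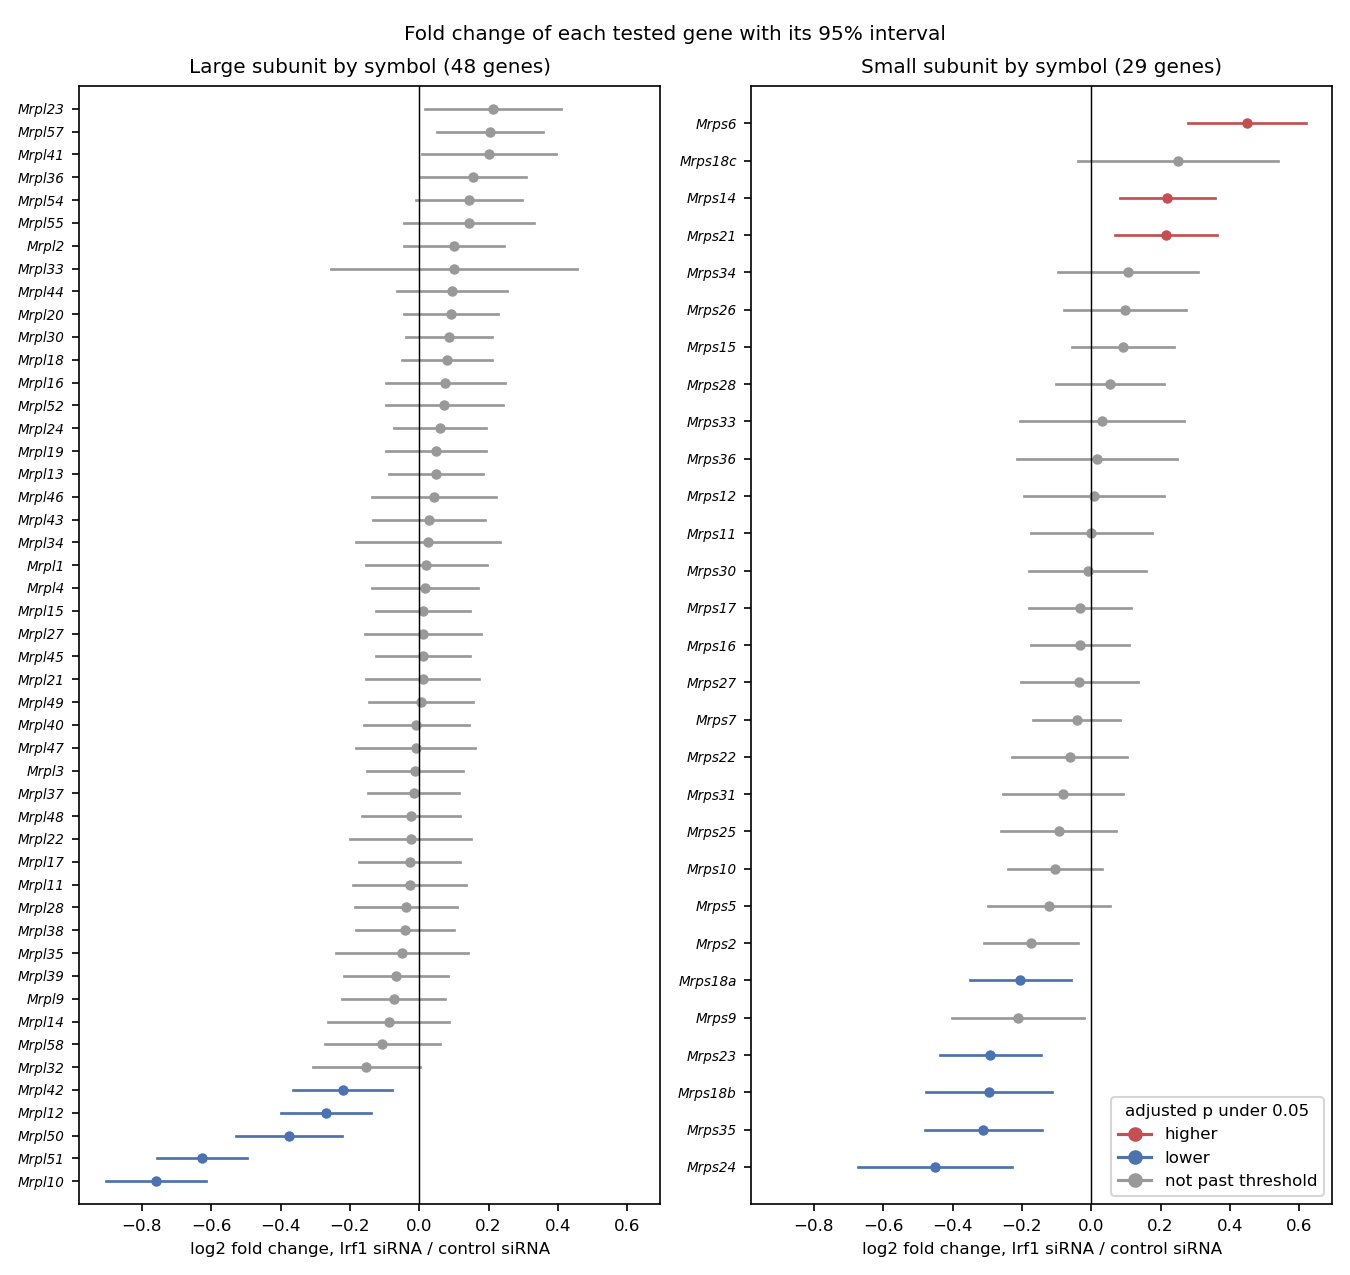
Log2 fold change (Irf1 siRNA over control siRNA, x axis) of each tested gene with its 95% interval, large subunit symbols on the left and small subunit symbols on the right; red is higher, blue lower and grey not past an adjusted p of 0.05. Most intervals cross 0, the large subunit panel has 5 blue and 0 red genes, and the small subunit panel has 5 blue and 3 red genes.

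In the large subunit, 5 of 48 tested genes were lower and 0 were higher by edgeR. At an unadjusted p under 0.05, 5 were lower and 4 higher, and DESeq2 called 5 lower and 0 higher. The median log2 fold change was 0.01. In the small subunit, 5 of 29 tested genes were lower and 3 were higher by edgeR, with a median of −0.03. There, 7 were lower and 3 higher at an unadjusted p under 0.05, and DESeq2 called 4 lower and 2 higher. The share past the threshold by edgeR was 10.4% in the large and 27.6% in the small subunit, against 22.4% of all tested genes. DESeq2 called 19.7% of all tested genes. The share of all tested genes at an unadjusted p under 0.05 was not counted, so the unadjusted counts here and below have no baseline. The 95% interval lay within a 1.25-fold change for 79.2% of large and 65.5% of small subunit genes, at a median standard error of 0.07 and 0.08 and a median level of 30.5 and 24.3 CPM. The difference between the subunits was not tested. When proteins were placed by where they sit in the ribosome instead of by symbol (Mrps18a and Mrps30 in the large subunit, Mrps36 in neither), 6 of 50 large subunit genes were lower and 0 higher, and 4 of 26 small subunit genes were lower and 3 higher.

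Summed over the genes, both subunits were near their control level, and the groups overlapped only through Irf1 siRNA library 1. The large subunit genes summed to 1554.5, 1586 and 1574 CPM in the control libraries and to 1592, 1519 and 1499 CPM in the Irf1 siRNA libraries. The small subunit genes summed to 758, 771 and 764 CPM and to 773, 738 and 722 CPM. In both subunits the highest sum belonged to Irf1 siRNA library 1 and the lowest to Irf1 siRNA library 3. Irf1 siRNA libraries 2 and 3 lay below every control library in both sums. Means with Irf1 siRNA were 97.8% (large) and 97.4% (small) of control. The ratio of the large to the small sum was 2.052, 2.057 and 2.061 with control siRNA and 2.058, 2.059 and 2.075 with Irf1 siRNA (means 2.057 ± 0.0045 and 2.064 ± 0.0096, SD, n = 3), again with overlap. The whole family took 0.222 to 0.236% of the counts of a library.

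**Figure D2:**
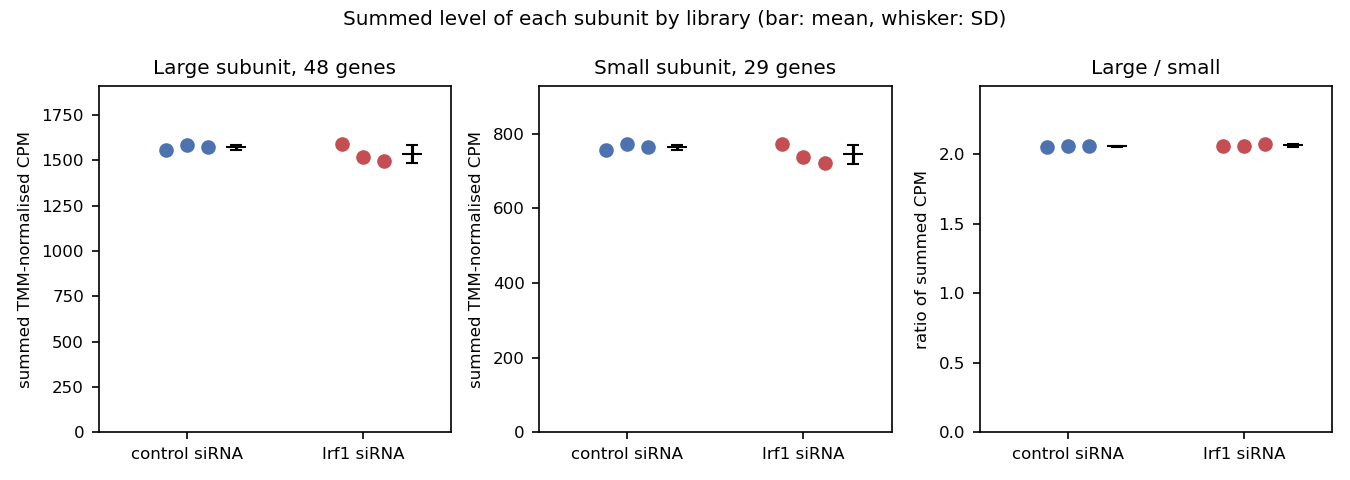
Summed TMM-normalised CPM of the 48 large (left) and 29 small (middle) subunit genes and their ratio (right) in each of the 3 control (blue) and 3 Irf1 siRNA (red) libraries, with the mean and SD beside the points. Means with Irf1 siRNA are 97.8% and 97.4% of control in the sums, and the ratio stays between 2.052 and 2.075 in all 6 libraries.

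The largest fall was that of Mrpl10, the protein at the base of the stalk through which the large subunit recruits translation factors. Its promoter is shown because it holds the core motif of the factor NRF1, a regulator of nuclear genes for mitochondria. Shown are the 250 bases before the RefSeq start in GRCm38.p6 (chr11:97041332-97041581, plus strand), 5′ to 3′, with the match to the NRF1 core (GCGCATGCG on the other strand) in capitals.
Mrpl10 promoter: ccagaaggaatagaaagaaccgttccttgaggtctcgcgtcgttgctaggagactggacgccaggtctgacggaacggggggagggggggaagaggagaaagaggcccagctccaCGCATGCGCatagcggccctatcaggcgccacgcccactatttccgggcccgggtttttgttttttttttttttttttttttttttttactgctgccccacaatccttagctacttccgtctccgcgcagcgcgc

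Mrpl10 was at 48.7, 53.3 and 50.002 CPM in the control libraries and at 29, 32.0 and 28.7 CPM in the Irf1 siRNA libraries. Every Irf1 siRNA library lay far below every control library, and the mean fell to 59.1% of control (log2 fold change −0.76, 95% interval −0.90 to −0.61, adjusted p = 1.2e-06). Mrpl12, the other stalk protein, of which several copies bind Mrpl10, was at 57.3, 57.7 and 56.1 CPM and at 49.7, 44.5 and 47.7 CPM. The groups did not overlap either, but the fall was smaller, to 82.9% of control (log2 fold change −0.27 ± 0.06, adjusted p = 0.0048). Mrpl11, which lies beside the stalk, was at 98.1% of control (log2 fold change −0.03 ± 0.08, adjusted p = 0.837).

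Mrpl51, a large subunit protein without a bacterial counterpart, had the second largest fall. Its promoter is shown for its ETS core (CCGGAAG, the site type bound by GABPA, an activator of many nuclear genes for mitochondria), in capitals, in the 250 bases before the start (GRCm38.p6, chr6:125191950-125192199, plus strand).
Mrpl51 promoter: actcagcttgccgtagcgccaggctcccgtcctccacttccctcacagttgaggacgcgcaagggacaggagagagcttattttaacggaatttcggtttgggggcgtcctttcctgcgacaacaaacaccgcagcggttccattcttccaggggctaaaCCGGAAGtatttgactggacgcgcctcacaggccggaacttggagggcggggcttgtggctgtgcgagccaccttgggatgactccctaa

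Mrpl51 was at 45.8, 47.6 and 47.6 CPM in the control libraries and at 30.4, 30.9 and 30.0 CPM in the Irf1 siRNA libraries. Spread within each group was small beside the gap between them, and the mean was 64.8% of control (log2 fold change −0.63, 95% interval −0.76 to −0.50, adjusted p = 3.0e-06). Ncapd2, a condensin subunit gene that starts 100 bases away on the opposite strand, was lower as well, at 79.0% of control (log2 fold change −0.34, adjusted p = 3.4e-04).

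Mrpl50 and Mrpl42, also without bacterial counterparts, completed the large subunit genes that fell. Mrpl50 was at 34.7, 36.2 and 39.8 CPM with control siRNA and at 27.2, 29.5 and 28.5 CPM with Irf1 siRNA, with no overlap (log2 fold change −0.38 ± 0.07, adjusted p = 0.0015). Zfp189, which starts 83 bases away on the opposite strand, had a log2 fold change of −0.18 (adjusted p = 0.365). Mrpl42 was at 40.5, 38.9 and 39.6 CPM with control siRNA and at 35.6, 35.0 and 31.5 CPM with Irf1 siRNA. Its groups did not overlap, and its log2 fold change was −0.22 ± 0.07 (adjusted p = 0.0270).

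The other 43 tested large subunit genes did not pass the threshold, with log2 fold changes from −0.15 (Mrpl32) to 0.21 (Mrpl23). Mrpl57 was nearest to it, at 24.5, 23.9 and 23.8 CPM with control siRNA and 29.6, 27.4 and 26.2 CPM with Irf1 siRNA. The groups did not overlap and the adjusted p was 0.0522 (log2 fold change 0.20). Mrpl3, a core protein near the site of peptide bond formation, was at 99.1% of control, with an interval of −0.15 to 0.13 on the log2 scale. Mrpl58, a peptidyl-tRNA hydrolase built into the ribosome that can release stalled chains, was at 92.9% of control (log2 fold change −0.11 ± 0.08, adjusted p = 0.360). Mrpl41, without a bacterial counterpart, was at 15.2, 14.6 and 17.0 CPM and at 19.6, 17.8 and 16.4 CPM, which overlap (log2 fold change 0.20 ± 0.09, adjusted p = 0.128). The tightest intervals about no change were those of Mrpl45 (−0.13 to 0.15) and Mrpl37 (−0.15 to 0.11).

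Mrps6, the only small subunit gene to rise by more than 1.25-fold, encodes the counterpart of a bacterial protein that lies beside S18 in the platform of the small subunit. It was at 19.3, 18.9 and 18.0 CPM in the control libraries and at 27.8, 25.5 and 23.5 CPM in the Irf1 siRNA libraries. The lowest Irf1 siRNA library lay above the highest control library, and the mean was 137% of control (log2 fold change 0.45, 95% interval 0.28 to 0.62, adjusted p = 8.0e-04). The 250 bases before its start (GRCm38.p6, chr16:92058086-92058335, plus strand) are shown as the promoter of the gene with the largest rise, and they hold none of the 3 motifs searched.
Mrps6 promoter: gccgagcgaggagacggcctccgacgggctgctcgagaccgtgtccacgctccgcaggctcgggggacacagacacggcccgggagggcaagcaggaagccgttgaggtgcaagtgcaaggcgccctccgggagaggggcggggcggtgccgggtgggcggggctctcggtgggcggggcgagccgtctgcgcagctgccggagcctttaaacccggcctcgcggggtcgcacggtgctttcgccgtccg

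Mrps6 shares 159 exonic bases on the same strand with Slc5a3, an inositol transporter gene, in GENCODE M21. Slc5a3 was at 89.7% of control (log2 fold change −0.16, adjusted p = 0.179). The other 2 genes that rose also encode proteins with bacterial counterparts. Mrps14, in the head of the subunit, was at 34.1, 33.5 and 36.0 CPM with control siRNA and at 41.5, 40.6 and 38.4 CPM with Irf1 siRNA (log2 fold change 0.22 ± 0.06, adjusted p = 0.0234). Mrps21 was at 25.5, 25.1 and 27.2 CPM and at 29.7, 31.4 and 29.2 CPM (log2 fold change 0.22 ± 0.07, adjusted p = 0.0361). In neither gene did the groups overlap.

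Mrps24, the counterpart of bacterial S3 near the entry of the messenger RNA, had the largest fall of the small subunit. It was at 19.3, 17.2 and 15.4 CPM with control siRNA and at 14.3, 12.2 and 11.5 CPM with Irf1 siRNA. The groups did not overlap, though both were spread, and the mean was 73.2% of control (log2 fold change −0.45 ± 0.10, adjusted p = 0.0058). Urgcp, which shares 226 exonic bases with it on the same strand, had a log2 fold change of 0.20 (adjusted p = 0.0419). Just after its start, on the sense strand, Mrps24 has the core of the factor YY1 (AAGATGGC, in capitals), shown with the bases about it.
Mrps24 start region: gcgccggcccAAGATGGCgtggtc

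Mrps23 and Mrps35, small subunit proteins without bacterial counterparts, fell by 0.29 ± 0.07 and 0.31 ± 0.08 on the log2 scale (adjusted p = 0.0066 and 0.0106). Mrps23 was at 32.7, 33.4 and 34.7 CPM with control siRNA and at 27.4, 29 and 26.1 CPM with Irf1 siRNA. Mrps35 was at 22.2, 21.4 and 22.6 CPM and at 18.0, 19.0 and 16.3 CPM. Control and Irf1 siRNA values did not overlap in either gene.

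The 3 relatives of bacterial S18 differed in their values. Mrps18b, without a direct bacterial equivalent, was at 31.7, 37.9 and 36.6 CPM with control siRNA and at 32.2, 27.1 and 27.3 CPM with Irf1 siRNA. It was the only one of the 13 genes past the threshold whose groups overlapped, through control library 1 and Irf1 siRNA library 1 (log2 fold change −0.30 ± 0.09, adjusted p = 0.0207). Mrps18a, whose protein sits in the large subunit despite its symbol, was at 25.8, 26.3 and 25.9 CPM and at 23.0, 22.5 and 22.1 CPM, with no overlap (log2 fold change −0.20 ± 0.07, adjusted p = 0.0422). Mrps18c, the small subunit's S18 proper, was at 7.49, 5.04 and 6.28 CPM and at 7.67, 7.16 and 7.56 CPM, which overlap (log2 fold change 0.25 ± 0.14, adjusted p = 0.211). It was the lowest of the tested family members in CPM, and its interval of −0.04 to 0.54 was wide.

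The other 21 tested small subunit genes did not pass the threshold, and the nearest to it was Mrps2 (log2 fold change −0.17, adjusted p = 0.0633, groups not overlapping). Mrps7, which binds the ribosomal RNA of the head, was at 97.1% of control, with an interval of −0.17 to 0.08. Mrps16 was at 97.7% of control (interval −0.17 to 0.11). Mrps12, the counterpart of the bacterial protein altered in streptomycin resistance, was at 101% of control (interval −0.19 to 0.21). Mrps27, an RNA-binding pentatricopeptide repeat protein, was at 97.7% of control (interval −0.20 to 0.13). Mrps30, placed in the large subunit by structure, was at 99.3% of control, and Mrps36, known also as a part of the 2-oxoglutarate dehydrogenase complex, was at 101% of control, with intervals of −0.18 to 0.16 and −0.22 to 0.25.

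**Figure D3:**
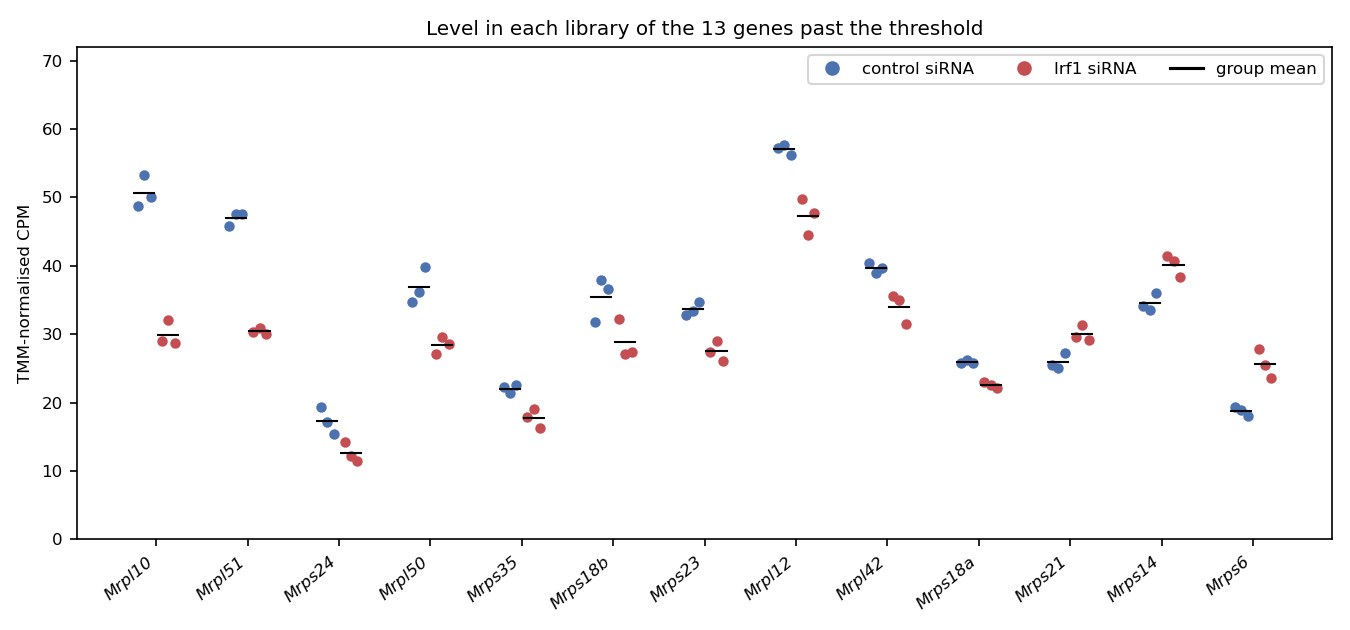
TMM-normalised CPM (y axis, from 0) in each of the 3 control (blue) and 3 Irf1 siRNA (red) libraries of the 13 genes past the threshold, ordered by fold change, with black bars at the group means. Mrpl10 and Mrpl51 show the widest gaps between the groups, Mrps18b is the one gene whose groups overlap, and Mrps21, Mrps14 and Mrps6 are higher with Irf1 siRNA.

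By origin of the protein, 3 of 46 genes with a bacterial counterpart were higher and 3 were lower (median log2 fold change 0.01). Of 30 tested genes for mitochondria-specific proteins, 0 were higher and 7 were lower by edgeR (median −0.02). The shares changed were 13% with a bacterial counterpart and 23.3% without, against 22.4% of all tested genes (10.4% higher and 12% lower). At an unadjusted p under 0.05, 2 of these 30 were higher and 7 lower, and DESeq2 called 0 higher and 6 lower. Mrps18a and Mrps18b, relatives of bacterial S18 without a direct bacterial equivalent, were counted in this class, and the other 5 lower genes were Mrpl42, Mrpl50, Mrpl51, Mrps23 and Mrps35. The classes were assigned from background knowledge after the values were seen, and their difference was not tested.

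The calls differed in how much they rested on single libraries and settings. Over 14 other fits (8 with another tool, scaling, filter or correction, and 6 leaving out 1 library each), Mrpl10, Mrpl51, Mrpl50, Mrpl12, Mrps6, Mrps24 and Mrps23 passed in each, and no called gene changed sign. Mrps35 was lost without Irf1 siRNA library 3 (adjusted p = 0.067). Mrps14 was lost without control library 1 or 2 or Irf1 siRNA library 1 (0.0683 to 0.0978). Mrpl42 was lost without any 1 of the control libraries or without Irf1 siRNA library 3 (0.0531 to 0.139), and Mrps18b without control library 2 or 3 or Irf1 siRNA library 2 or 3 (0.0509 to 0.1001). Mrps21 was lost in 9 and Mrps18a in 10 of the 14 fits, DESeq2 among them (adjusted p = 0.0588 and 0.0911, ranges over all fits 0.020 to 0.131 and 0.0134 to 0.132). Without control library 2 or Irf1 siRNA library 3, 8 of the 13 genes remained. Of all tested genes, 15.4% and 14.9% were called in these 2 fits, against 22.4% with all 6 libraries.

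Levels per length were compared as TPM (read counts scaled to gene length and library size, with the summed exon length of each gene in GENCODE M21). Among large subunit genes with control siRNA, Mrpl54 (214 ± 5.34 TPM, SD, n = 3), Mrpl12 (150 ± 1.40) and Mrpl2 (143 ± 0.667) were highest, and Mrpl1 (15.3 ± 1.204), Mrpl23 (10.03 ± 0.653) and Mrpl33 (8.56 ± 2.16) were lowest. The highest was 25 times the lowest, and the median was 51.7 TPM. Among small subunit genes, Mrps21 (141 ± 7.04 TPM), Mrps28 (122 ± 2.45) and Mrps7 (95.4 ± 1.38) were highest, and Mrps5 (18.1 ± 1.97), Mrps25 (12.6 ± 0.749) and Mrps35 (10.3 ± 0.325) were lowest. Here the span was 13.7-fold about a median of 34.4 TPM. Between control libraries, the median coefficient of variation of a gene was 4.97% in the large and 5.19% in the small subunit, small beside these ranges. The order depended on the length used: with the longest coding transcript instead of all exons, Mrpl23 moved from rank 47 to 29 and Mrpl13 from rank 38 to 8 of the 48 large subunit genes, and Mrps10 from rank 25 to 2 of the 29 small subunit genes, while Mrps21 stayed first and Mrps25 and Mrps35 stayed within the last 2.

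**Figure D4:**
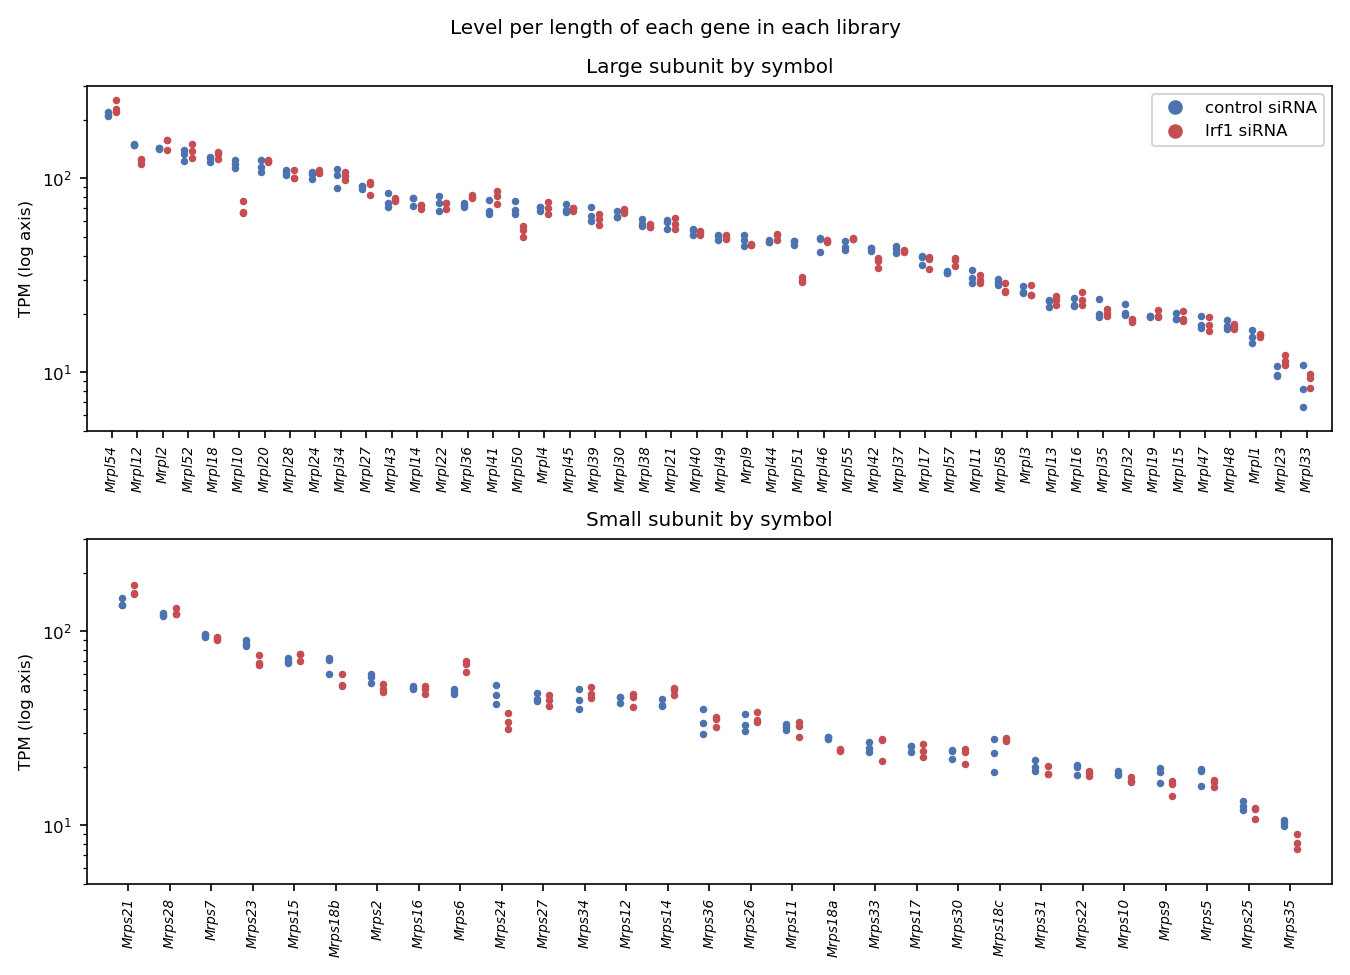
TPM (log axis) of each tested gene in the 3 control (blue) and 3 Irf1 siRNA (red) libraries, in order of the control mean, large subunit symbols above and small subunit symbols below. Levels run from 214 to 8.56 TPM in the large and from 141 to 10.3 TPM in the small subunit, and red and blue points of most genes lie together, with Mrpl10 and Mrpl51 as visible gaps.

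Promoters were searched for the NRF1 core (GCGCATGCG), the ETS core (CCGGAAG) and the YY1 core (AAGATGGC) on both strands, from 250 bases before to 50 bases after the start. No stretch shown holds more than 1 match, so the matches do not overlap. RefSeq held 75 promoters for 69 of the 78 genes. The NRF1 core was in 9.33% of them, against 1.75% of all promoters in the table and 3.34% of the promoters of tested genes. The ETS core was in 34.7%, against 8.86% and 16.6%, and the YY1 core in 16% against 2.75% and 4.21%. By subunit, the shares were 12.5% (large) and 3.7% (small) for NRF1, 31.2% and 40.7% for ETS, and 12.5% and 22.2% for YY1. Of 25 tested genes with an ETS core 1 was higher and 4 were lower (median log2 fold change 0.01), and of 43 without it 2 were higher and 5 lower (median −0.01). With the YY1 core 0 of 12 were higher and 3 lower, and without it 3 of 56 were higher and 6 lower. With the NRF1 core 0 of 7 were higher and 2 lower, and without it 3 of 61 were higher and 7 lower. Of all tested genes, 10.4% were higher and 12% lower, and the differences between genes with and without a motif were not tested.

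In the 3′ UTR, 4 words of 7 letters were looked for (ACTGATC and CTGATCA, which overlap each other, and GCTATCT and CTATCTA, which also do; sense strand only), which an earlier analysis of the same libraries had picked because lowered genes held them more often. At least 1 was in 11 of 77 family members (14.3%, median 3′ UTR length 497 bases), against 25.3% of tested genes with a 3′ UTR (median 1381 bases). Among the family, 3 of the 10 lower genes, 0 of the 3 higher genes and 8 of the 64 others held a word. Over all genes, 46.7% of the lower ones and 22.9% of those not past the threshold did, and the words had been picked for such a difference. The 3 sites in lower genes are shown with the word or overlapping words in capitals, from GENCODE M21 transcripts.
Mrpl10 site: ccttggtttcACTGATCActgtctttag
Mrpl50 site: ttttttctgtGCTATCTAgttttagggg
Mrps24 site: gaataaaaccCTGATCAtgttttgtcc
They begin at base 207 of 878 in Mrpl10, 1251 of 1594 in Mrpl50 and 110 of 466 in Mrps24. Mrpl51, with the second largest fall, held none in 2850 bases. Without the 11 genes that hold a word, 3 large and 4 small subunit genes were lower.

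Several of these genes lie close to others. For 18 family members, a coding gene on the opposite strand starts upstream, within 1000 bases of the member's start. Opposite-strand genes that start inside the family member were not counted as partners. Of the 18 partners, 2 passed the threshold, against 22.4% of all tested genes: Ncapd2, beside Mrpl51, and Eme2, beside Mrps34. Eme2 had a log2 fold change of 0.31 (adjusted p = 0.0211) and Mrps34 of 0.11 (adjusted p = 0.463). Lrrc46, 153 bases from Mrpl10, had a log2 fold change of −0.26 (adjusted p = 0.717), and Ppp1r10, 45 bases from Mrps18b, of 0.06 (adjusted p = 0.556). No source used here gives the strand setting of the counting, so genes that overlap can share reads. Exons of another gene overlap 33 family members. Without those, 5 genes were lower (2 large and 3 small subunit genes) and 2 were higher, as fewer genes were then counted. Gm11574, which overlaps Mrpl10, had 1 to 4 counts with control siRNA and 0 to 2 with Irf1 siRNA. Mir3098, which overlaps Mrpl51, had 0 in all libraries. Slc5a3 and Urgcp, which overlap Mrps6 and Mrps24, had 1251 to 1587 and 731 to 788 counts with control siRNA. Whether shared reads affected any call was not tested. For Mrpl53, 695 of its 790 exonic bases also belong to Gm42688 on the same strand, and Gm42688 had 16 to 31 counts in the control and 21 to 27 in the Irf1 siRNA libraries.

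Other genes of mitochondrial translation were taken from lists of known roles. None of 5 ribosome members with other symbols (Dap3, Chchd1, Ptcd3, Aurkaip1 and Gadd45gip1) passed the threshold with edgeR or DESeq2, 0 had an unadjusted p under 0.05, and their log2 fold changes ran from 0.01 to 0.11. Of 27 assembly factors, 1 was higher and 3 were lower (14.8% changed, against 22.4% of all tested genes; median log2 fold change −0.07). The 2 largest falls were those of Mtg1, a GTPase of large subunit assembly, from 12.6 ± 1.12 to 6.03 ± 0.454 CPM (log2 fold change −1.06 ± 0.11, adjusted p = 4.7e-06), and of Rpusd4, a pseudouridine synthase that acts on the ribosomal RNA of the large subunit, from 14.2 ± 0.323 to 7.53 ± 0.294 CPM (log2 fold change −0.91 ± 0.09, adjusted p = 4.1e-06). Both passed in each of the 14 other fits, and their fold changes were larger than that of any ribosomal protein gene of the family. Tfb1m, which methylates the small subunit's ribosomal RNA, was lower (log2 fold change −0.32, adjusted p = 0.0326) and Ngrn, which is needed for the large subunit's ribosomal RNA, was higher (0.25, adjusted p = 0.0343), and these 2 calls were lost in 7 and 5 of the 14 fits.

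Of 14 translation factors, only Mtrfr, a factor for stalled ribosomes, passed the threshold, at 75.2% of control (log2 fold change −0.41, adjusted p = 0.0112). Of 22 aminoacyl-tRNA synthetases and related enzymes, only Gatb, a subunit of the enzyme that makes glutaminyl-tRNA, did (−0.38, adjusted p = 0.0283, lost in 4 of 14 fits). The shares changed were 7.14% and 4.55%. Of 21 genes for transcription and RNA stability in mitochondria, Fastk (−0.26, adjusted p = 0.0150) and Fastkd5 (−0.46, adjusted p = 0.0453), RNA-binding proteins of the same family, were lower, and 0 were higher by edgeR or DESeq2 (2 at an unadjusted p under 0.05), so that 9.52% changed. Fastk was lost in 3 of 14 fits and Fastkd5 in 7 of 13. Of 12 regulators of nuclear genes for mitochondria, Esrra, a nuclear receptor, was higher (0.34, adjusted p = 0.01). Gabpb1, a partner of GABPA, and Sp1 were lower (−0.25 and −0.22, adjusted p = 0.0160 and 0.0211). These 3 calls were lost in 1, 3 and 3 of 14 fits, and Nrf1 was at −0.04 (adjusted p = 0.777). Gabpa itself was at −0.11 (adjusted p = 0.309) and Gabpb2 at 0.18 (adjusted p = 0.106). The share of regulators changed was 25%, near the 22.4% of all tested genes, and at an unadjusted p under 0.05 the counts were 5 higher and 3 lower. The genes encoded by mitochondrial DNA were not analysed here.

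The cytosolic ribosomal protein genes and the complex I genes had more genes higher than the 3 of 77 of the mitochondrial ribosome. Of 80 tested cytosolic ribosomal protein genes, 34 were higher and 0 lower by edgeR (63 and 0 at an unadjusted p under 0.05, 47 and 0 by DESeq2; median log2 fold change 0.20, interquartile range 0.15 to 0.25). Of 37 genes for complex I of the respiratory chain with an Nduf symbol, 8 were higher and 0 lower (14 and 0 unadjusted, 9 and 0 by DESeq2, median 0.13, 0.08 to 0.26). The shares changed were 42.5% and 21.6%, against 22.4% of all tested genes (10.4% higher). Among the mitochondrial ribosomal protein genes, 39 of 77 log2 fold changes were negative, against 1 of 80 and 4 of 37. These 2 comparison families were chosen after the values were seen, and the differences between the families were not tested. Cytosolic ribosomal protein genes have many near-identical pseudogenes, so their counts are less certain.

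**Figure D5:**
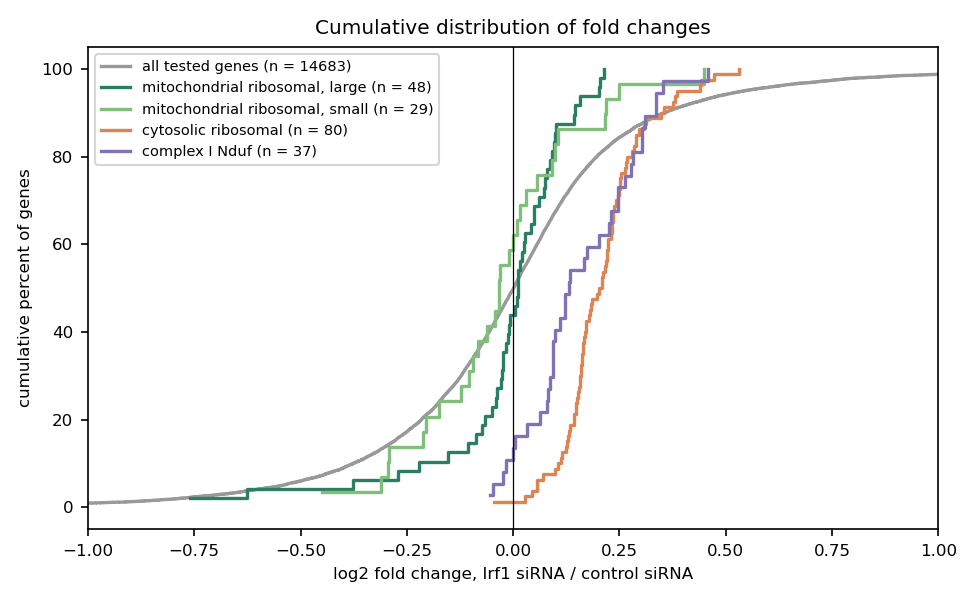
Cumulative percent of genes (y axis) by log2 fold change (x axis, shown from −1 to 1) for all 14683 tested genes (grey), the 48 large and 29 small subunit mitochondrial ribosomal protein genes (dark and light green), 80 cytosolic ribosomal protein genes (orange) and 37 complex I genes (purple). Both green curves cross the middle near 0, with medians of 0.01 and −0.03, while the orange and purple curves lie to the right, with medians of 0.20 and 0.13.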

How the data were processed

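Poly(A)-selected, stranded RNA-seq libraries of mouse chondrocytes were used, 3 per siRNA. The authors deposited raw whole-number read counts per gene, with 1 table per library. The submitters' processing notes name Trimmomatic 0.39, FastQC, STAR and the build GRCm39 (mm39). No source used here gives the counting tool, annotation or strand setting.

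Genes were tested with edgeR 4.0.16 (R 4.3.3): filterByExpr by group, TMM factors, robust quasi-likelihood F test, two-sided, group as the only term, adjusted p by Benjamini and Hochberg over all 14683 tested genes. Standard errors are the absolute log2 fold change over the square root of F. Within-group library pairs differed by more than counting noise. Gene lengths, 3′ UTRs and neighbours come from GENCODE M21 (GRCm38) by gene identifier, with all 78 genes matched, and promoters from RefSeq (GRCm38.p6); no coordinates were converted.

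Alternatives were DESeq2 1.42.0, RLE and upper-quartile factors, no filter on low counts, a mean of at least 5 CPM, a replicate block, thinning to the smallest total, a GC and length correction, leaving out each library, subunits by structure, and leaving out overlapped genes. Named genes were all family members past the threshold, the 3 highest and 3 lowest per length and the 2 nearest to no change in each subunit, members of fixed role, and up to 4 genes past the threshold per pathway list; any other gene named was chosen after its values were seen. The family, lists and words were chosen with earlier results of these data known. Protein classes, the comparison families and the omission of genes holding a word were added after the values were seen. The 6 pseudogenes of the family were left out.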

Additional observations from a re-analysis of the deposited data

How the results depend on the processing

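Median log2 fold changes and summed levels of both subunits moved by less than the spread between libraries in every alternative that was run, and the median of all genes shifted by less than 0.1. Of the counts, 1 large subunit gene (Mrpl57) was higher, in place of 0, with RLE factors, with upper-quartile factors, with genes limited to means of 5 CPM or more and after correction for GC content and length. Leaving out 1 library at a time gave 1 to 3 family members higher and 6 to 9 lower, 1 to 3 small subunit genes higher and 2 to 4 lower. Fewer samples were then fitted, and 14.9 to 20.7% of all tested genes were called, against 22.4% with all 6 libraries. Without members overlapping another gene, 5 members were lower (2 large and 3 small subunit genes), and without those holding a word in the 3′ UTR, 3 large subunit genes were lower, as fewer genes were then counted. DESeq2 called 11 members, all among the 13, and 2897 genes in all, against 3289.

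Libraries with the same replicate number did not all deviate together (correlations of 0.415, −0.161 and 0.0764), and not every library correlated best with its own number, so the numbers were not taken to pair them. With a replicate block, 3 members were higher and 9 lower, 12 of them among the 13, without Mrps18a (adjusted p = 0.0551), and 3728 genes were called in all. The family's libraries held 142 to 2121 counts per tested gene and their log2 fold changes a median standard error of 0.07. Thinning to the smallest total lost 1 of the 13 calls, and the chi-square of 2 libraries of a group was 5.75 to 16.5 per degree of freedom; the part of depth in that error was not tested.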
